A study of Mus musculus with 18 samples.

Results

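Major urinary protein (Mup) transcripts were read in the liver of mouse offspring whose dams had been fed extra protein in pregnancy or in lactation. The Mup probe sets are those whose gene symbol on the array platform is Mup followed by digits. They number 4 of 45101 probe sets and name 3 of the 18194 genes that sets with 1 symbol name. Mup3 has 2 sets (1427631_x_at and 1427249_x_at), Mup10 has 1430893_at, and Mup5 has 1426166_at. No set names several Mup genes.

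Major urinary proteins are small lipocalins that hepatocytes secrete into the blood and that pass into urine, where they bind and slowly release volatile pheromones. In the mouse liver their transcripts are among the most abundant, are higher in adult males than in females, and appear around weaning and puberty. They depend on pulsatile growth hormone acting through its receptor and STAT5, and androgens, thyroid hormone and glucocorticoids also raise them. The genes lie in one cluster on chromosome 4, with a central block of nearly identical copies and more divergent genes at its edges.

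The samples were livers of the outbred line DUK, a cross of several outbred and inbred lines kept by the submitters' institute. Dams received isoenergetic diets with 40% protein by weight (high protein, HP) or 20% (control). The 6 groups of 3 arrays were HP pregnancy (HP in pregnancy alone), HP lactation (HP in lactation alone) and control (control diet throughout), each with livers of offspring at postnatal day 150 and day 21. Each array carried RNA of pooled livers, and the labels differ on whether 3, 4 or 5 animals stood behind a group or pool and do not say whether pools share animals. Every error and p-value below hence measures how pools differed, not animals or litters. The labels give no sex, no scan date and no detection call. Values are MAS5 signals on a linear scale, with the 2% trimmed mean of each array at 500. Group levels are geometric means, with the SD on the log2 scale.

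Markers of liver cells were read first. Summed signals of 7 hepatocyte genes lay between 171291 and 329580 over the 18 arrays, while the 4 measured cholangiocyte markers summed to at most 382.2, the 5 lymphocyte markers to at most 282.8 and the 2 measured erythroid markers to at most 1265. The 6 Kupffer cell, 6 endothelial and 6 stellate markers summed to 6311 to 15685, 7759 to 12986 and 11429 to 26912, and their shifts between groups stand beside the results they move with. Control day 21 replicate 2 and HP lactation day 150 replicate 4 stood apart, with signals of 7343 and 11644 for Xist, the RNA that coats the silenced X, against 28.0 to 93.0 in the other 16 arrays. The summed signal of 3 Y-linked genes was 1844 and 2596 in these 2 arrays and 2769 to 4096 in the others. Results that rest on either array are given below without it. The signal ratio of the 3' to the 5' probe set of Gapdh, a measure of RNA and labelling quality, was 1.30 to 1.80 at day 150 and 0.82 to 0.99 at day 21.

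In the order of the 22 numbered Mup genes along chromosome 4, Mup10 is the 8th, inside the block of similar genes, Mup5 is the 19th and Mup3 the 21st, near one edge. The upstream regions of Mup3 and Mup10 are shown because their signals followed different courses, as the values below describe. Each is the 250 bases before the annotated start, from RefSeq, build GRCm38.p6, on the minus strand: chr4:62087318-62087567 for Mup3 and chr4:60582156-60582405 for Mup10. Capitals mark the letters TATATAA, those of a TATA box.
Mup3: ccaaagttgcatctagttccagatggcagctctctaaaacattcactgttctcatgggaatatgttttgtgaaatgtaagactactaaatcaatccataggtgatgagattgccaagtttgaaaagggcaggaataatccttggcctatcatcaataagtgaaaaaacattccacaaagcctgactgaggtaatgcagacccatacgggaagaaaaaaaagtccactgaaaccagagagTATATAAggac
Mup10: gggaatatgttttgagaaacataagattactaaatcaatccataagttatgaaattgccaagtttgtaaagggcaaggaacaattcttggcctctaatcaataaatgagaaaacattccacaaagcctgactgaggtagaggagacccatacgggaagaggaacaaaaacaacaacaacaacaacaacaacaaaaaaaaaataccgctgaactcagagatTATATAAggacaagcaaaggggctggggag

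TATATAA began 11 bases before the annotated start of Mup3 and 30 bases before that of Mup10. Searched on the gene strand, it stood in 2.05% of 32851 such windows (3.04% on either strand). With the same search on the gene strand, it stood in 11 of the 14 windows of numbered Mup genes on hand. The window of Mup10 held 111 A and that of Mup3 93. Aligned over 231 positions with free ends, the windows matched at 173, differed at 22 and had gaps at 36, an identity of 74.9%. Mup10 matched the other 13 numbered Mup windows at 71.9 to 96.5% (median 93.6%, with 8 at 90% or more). The 96.5%, for Mup7, came from only 115 aligned positions. The other alignments spanned 208 to 251 positions, with 94.7% (Mup17) the highest. Mup3 matched its 13 at 74.4 to 92.7% (median 77.3%). TTCNNNGAA, the letters a STAT5 dimer is known to prefer, were in 0 of the 14 Mup windows and in 7.02% of all windows. A match or its lack describes these letters in this window only.

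Such similar genes can share probes. The suffix of both Mup3 sets (x_at) marks probes that can bind other sequences, and probes for Mup10 may bind its near-identical neighbours, so a signal below is that of the named set and cannot be assigned to 1 gene. Levels of different sets are not compared. Tests were run with limma on log2 signals of 22519 probe sets with a mean log2 signal of at least 5.85, adjusted over all of them within each comparison by the Benjamini-Hochberg method, with a threshold of 0.05. Of the 4 Mup sets, 3 passed this filter.

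Mup3, a male-biased urinary protein gene at the edge of the cluster, was far lower at day 21 after HP in lactation. Set 1427631_x_at read 1309, 3744 and 3913 in the 3 HP lactation arrays, against 24295, 17111 and 25716 in the 3 control arrays. The highest HP lactation array thus lay well below the lowest control array, and the HP lactation pools were spread more widely among themselves. The group levels were 2676 after HP lactation (SD 0.89 on the log2 scale, n = 3) and 22030 in control (SD 0.32, n = 3). The log2 difference was -3.04 (SE 0.29, limma adjusted p = 3.7e-05), which is 8.23-fold lower with a 95% interval of 0.079 to 0.19 for the ratio. Leaving out any 1 of the 6 arrays gave values from -3.32 to -2.53. The SE and interval rest on 1 estimate of the spread shared by all groups. With the 6 compared arrays fitted alone, the limma adjusted p was 0.0469. In bulk liver, fewer cells of a type and less RNA per cell cannot be told apart. At day 21 the summed signal of 7 of 8 listed hepatocyte genes was 171666 to 221990 after HP lactation and 171291 to 210095 after HP pregnancy, both below the 227601 to 240851 of control. The sum of 6 of 6 endothelial markers was 7759 to 8336 after HP lactation, below the 9671 to 12166 of HP pregnancy and the 9044 to 9684 of control. The part of these shifts in the Mup differences was not tested.

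Of the 3 tested Mup sets, 1 was lower and 0 were higher in this comparison, where 0.0888% of all sets were lower and 0.235% differed in either direction. Mup10, from the block of similar genes, read 436.6, 1114 and 289.8 after HP lactation, against 755.9, 723.6 and 1461 in control. The groups overlapped through HP lactation replicate 2. The log2 difference was -0.83 (SE 0.36, adjusted p = 0.275), and without HP lactation day 21 replicate 2 it was -1.38 (adjusted p = 0.0471), which brought the count of lower sets to 2. Mup5, a more divergent member, read 365.8, 381.8 and 210.0 after HP lactation, against 343.6, 42.8 and 217.9 in control. Its log2 difference of 1.06 (SE 0.48, adjusted p = 0.293) rested on control day 21 replicate 2, one of the arrays with Xist signal, and was 0.17 without it.

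**Figure D1:**
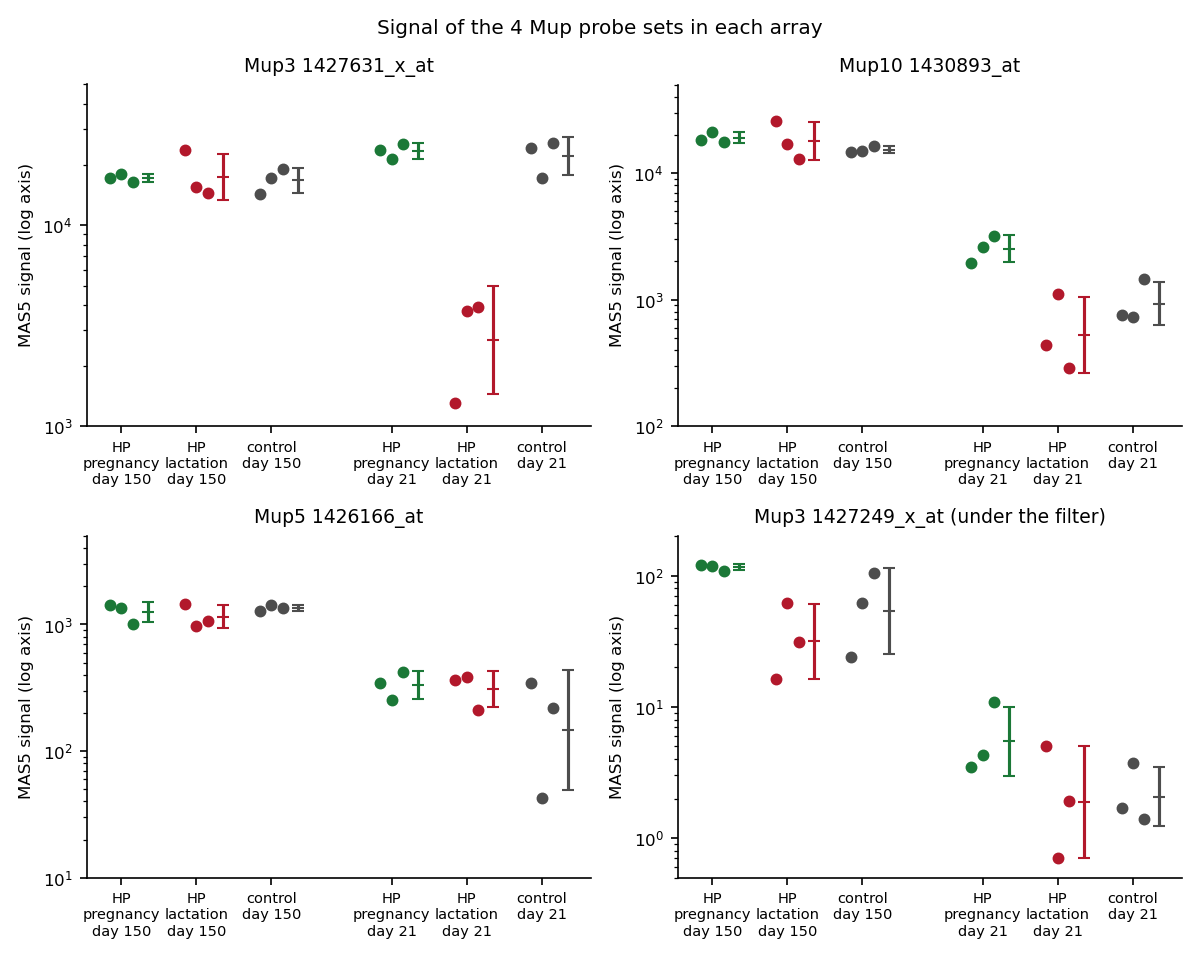
MAS5 signal (log axis, different range in each panel) of the 4 Mup probe sets in each of the 18 arrays, by diet group and day. Points are arrays in the order of their replicate numbers, and the bar beside them is the geometric mean with 1 SD of the log2 values. The HP lactation arrays of day 21 lie between 1309 and 3913 for Mup3 1427631_x_at, below every other array, and the Mup10 arrays of day 150 lie between 12986 and 25791.

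HP in pregnancy left Mup3 near its control level at day 21. Its signals were 23654, 21185 and 25360 after HP pregnancy, against 24295, 17111 and 25716 in control, and the groups overlapped. The log2 difference was 0.08 (SE 0.29, adjusted p = 0.949), with a 95% interval of -0.53 to 0.70. In this comparison 0 of the 3 Mup sets passed the threshold and 0.0% of all sets did, while 2451 of 22519 had an unadjusted p under 0.05. 

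Mup10 had the wider difference in that comparison, without passing the test. It read 1946, 2587 and 3205 after HP pregnancy, against 755.9, 723.6 and 1461 in control. Each HP pregnancy array lay above the highest control array. The levels were 2527 after HP pregnancy (SD 0.36 on the log2 scale, n = 3) and 927.9 in control (SD 0.57, n = 3), a log2 difference of 1.45 (SE 0.36, unadjusted p = 0.000764 from limma, adjusted p = 0.312). Mup5 read 346.9, 255.1 and 422.9 after HP pregnancy, and its log2 difference from control was 1.18 (SE 0.48, adjusted p = 0.405). Without control day 21 replicate 2 that value was 0.29.

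At day 21 both Mup3 and Mup10 differed between HP pregnancy and HP lactation. Both were higher with HP in pregnancy, with no overlap between the arrays listed above. Mup3 differed by a log2 value of 3.12 (SE 0.29, 8.72-fold, limma adjusted p = 2.4e-05). Mup10 differed by 2.28 (SE 0.36, 4.86-fold, adjusted p = 0.00474), and with the 6 compared arrays fitted alone its adjusted p was 0.077. Mup5 had a log2 difference of 0.12 (SE 0.48, adjusted p = 0.953). Thus 2 of the 3 Mup sets were higher after HP pregnancy, where 0.457% of all sets were higher and 0.626% differed in either direction. The HP pregnancy and HP lactation comparisons with control share their control arrays.

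At day 150 no tested Mup set passed the test between diet groups. Mup3 read 17234, 17849 and 16326 after HP pregnancy, 23580, 15440 and 14423 after HP lactation, and 14259, 17098 and 19034 in control. The single array above the rest is HP lactation day 150 replicate 4, which carries Xist signal. Of the 3 sets, 0 passed the threshold for HP pregnancy against control (1.12% of all sets did), for HP lactation against control (0.00888%) or for HP pregnancy against HP lactation (0.453%, of which 0.337% lower). At an unadjusted p under 0.05 the counts over all sets were 3910, 1921 and 3684 for these comparisons, in the same order. For Mup3 the log2 difference from control was 0.04 after HP pregnancy (95% interval -0.57 to 0.65) and 0.06 after HP lactation (-0.55 to 0.67). Without replicate 4 the HP lactation value was -0.16.

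Mup10 read 18281, 21171 and 17697 at day 150 after HP pregnancy, 25791, 16945 and 12986 after HP lactation, and 14596, 14824 and 16382 in control. All 3 HP pregnancy arrays lay above the control arrays, by a log2 difference of 0.32 (SE 0.36, adjusted p = 0.706), while the HP lactation arrays overlapped both groups. The HP lactation difference from control was 0.23 (SE 0.36, adjusted p = 0.886) and -0.04 without replicate 4. Mup5 read 1436, 1352 and 1017 after HP pregnancy, 1462, 972.7 and 1071 after HP lactation, and 1273, 1434 and 1349 in control, all overlapping, with log2 differences from control of -0.11 and -0.23 (SE 0.48 each, adjusted p = 0.941 and 0.922).

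The change of the Mup3 difference with age was tested as a difference of differences. For HP lactation against control, the day 150 difference exceeded that of day 21 by 3.10 on the log2 scale (SE 0.41, limma adjusted p = 0.00359). This was 1 of the 3 Mup sets, where 0.0178% of all sets passed. Mup10 and Mup5 had values of 1.06 (SE 0.51, adjusted p = 0.956) and -1.30 (SE 0.68, adjusted p = 0.956). With the 12 compared arrays fitted alone, the Mup3 value had an adjusted p of 0.0706. For HP pregnancy 0 of the 3 sets passed (0.00444% of all sets did, and 1008 had an unadjusted p under 0.05), with values of -0.05 for Mup3, -1.13 for Mup10 and -1.29 for Mup5.

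With age, Mup10 and Mup5 were higher in every diet group, and the tested Mup3 set in HP lactation. In control livers, Mup10 read 14596, 14824 and 16382 at day 150, against 755.9, 723.6 and 1461 at day 21, with no overlap. It was 16.4-fold higher at day 150 (log2 difference 4.04, SE 0.36, limma adjusted p = 6.27e-07). Mup5 read 1273, 1434 and 1349 at day 150, against 343.6, 42.8 and 217.9 at day 21. It was 9.16-fold higher (3.20, SE 0.48, adjusted p = 0.000224), and without control day 21 replicate 2, its lowest array, the log2 difference was 2.30 (adjusted p = 4.6e-05). Mup3 read 14259, 17098 and 19034 at day 150, against 24295, 17111 and 25716 at day 21, and its groups overlapped. Its log2 difference was -0.40 (SE 0.29, adjusted p = 0.406).

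Markers of other liver cells moved with age as well. Summed signals of the 6 stellate markers were 12205 to 15899 at day 150 and 21503 to 21921 at day 21 after HP pregnancy, 11607 to 12541 and 18001 to 22684 after HP lactation, and 11429 to 18348 and 19938 to 26912 in control, lower at day 150 without overlap. Those of the 6 Kupffer cell markers were 13492 to 14004 at day 150 and 8445 to 11557 at day 21 after HP pregnancy, 9574 to 15357 and 6311 to 9231 after HP lactation, and 11410 to 15685 and 7521 to 8941 in control, higher at day 150 without overlap. Their part in the age differences of the Mup sets was not tested.

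Of the 3 sets in control livers, 2 were thus higher at day 150 and 0 were lower, where 6.94% of all sets were higher, 6.63% lower and 13.6% differed in either direction. After HP pregnancy, Mup10 was 7.52-fold higher at day 150 (2.91, SE 0.36, adjusted p = 2.36e-05) and Mup5 3.75-fold higher (1.91, SE 0.48, adjusted p = 0.00865), so 2 of 3 were higher beside 8.91% of all sets (19.9% in either direction). Mup3 was lower in each of the 3 day 150 arrays than in any day 21 array there, by a log2 difference of -0.45 (SE 0.29) that did not pass in the fit of all groups (adjusted p = 0.311). With those 6 arrays fitted alone it had an adjusted p of 0.00833.

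After HP lactation the tested Mup3 set rose with age as well. All 3 sets were higher at day 150 than at day 21 there, where 10.2% of all sets were higher and 21.1% differed in either direction. Mup10 was 34.3-fold higher (5.10, SE 0.36, adjusted p = 1.35e-08), Mup3 6.50-fold higher (2.70, SE 0.29, adjusted p = 3.66e-06) and Mup5 3.73-fold higher (1.90, SE 0.48, adjusted p = 0.00824). The Gapdh 3' to 5' ratio differs between the days without overlap, so the 2 cannot be told apart. With that ratio as a covariate, the log2 difference of Mup10 with age was 4.68 in control (adjusted p = 0.00659) and 6.09 after HP lactation (adjusted p = 0.0202), and 3.86 after HP pregnancy (adjusted p = 0.326). That of Mup5 was 2.40 after HP pregnancy (adjusted p = 0.777), 2.42 after HP lactation (adjusted p = 0.944) and 3.53 in control (adjusted p = 0.173), and that of Mup3 after HP lactation 2.33 (adjusted p = 0.716).

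**Figure D2:**
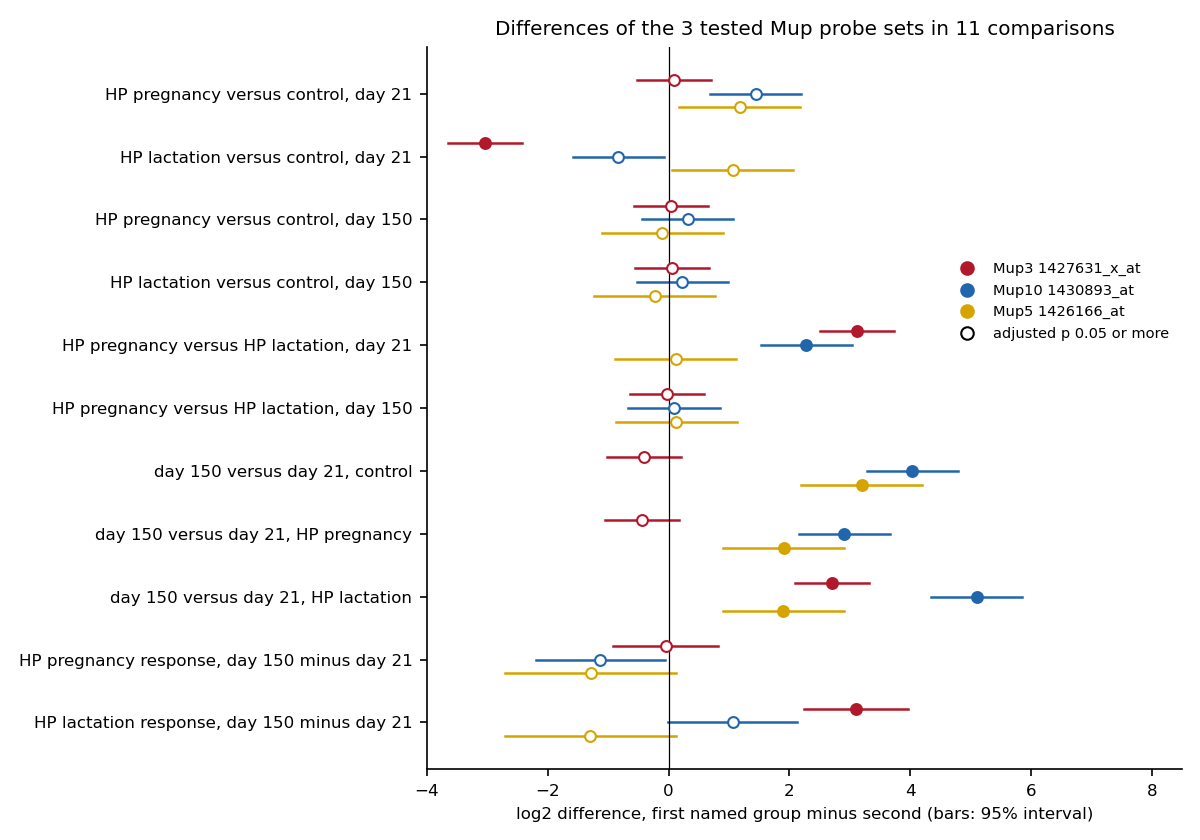
Log2 differences (x axis) of the 3 tested Mup probe sets in the 11 comparisons, first named group minus second, with 95% intervals from the limma fit. A response is the HP minus control difference at day 150 less that at day 21. Filled points have an adjusted p under 0.05: Mup3 at -3.04, 3.12, 2.70 and 3.10 in the comparisons that involve HP lactation at day 21, and Mup10 and Mup5 in the age comparisons, with Mup10 also at 2.28 between the HP groups at day 21.

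Ordered by level, Mup10 ran from HP pregnancy (18991), HP lactation (17837) and control (15247) at day 150 to HP pregnancy (2527), control (927.9) and HP lactation (520.5) at day 21. Neighbours within the day 150 trio did not pass the test, nor did HP pregnancy against control and HP lactation against control at day 21, while the arrays of the day 150 trio all lay above those of day 21. Mup3 1427631_x_at had another order, with HP pregnancy (23336) and control (22030) at day 21 on top, then HP lactation (17381), HP pregnancy (17125) and control (16679) at day 150, and HP lactation at day 21 (2676) last and apart from all others.

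The log2 difference between Mup10 and Mup3 1427631_x_at within an array removes what scales both alike, and its changes between groups can be read although its size cannot. It lay at -0.22 to 0.25 in the 9 arrays of day 150. At day 21 it was -3.60 to -2.98 after HP pregnancy, -3.76 to -1.58 after HP lactation and -5.01 to -4.14 in control. Every day 21 array was below every day 150 array, and at day 21 both HP groups lay above control without overlap. After HP pregnancy that came with higher Mup10 signals, and after HP lactation with lower Mup3 signals.

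**Figure D3:**
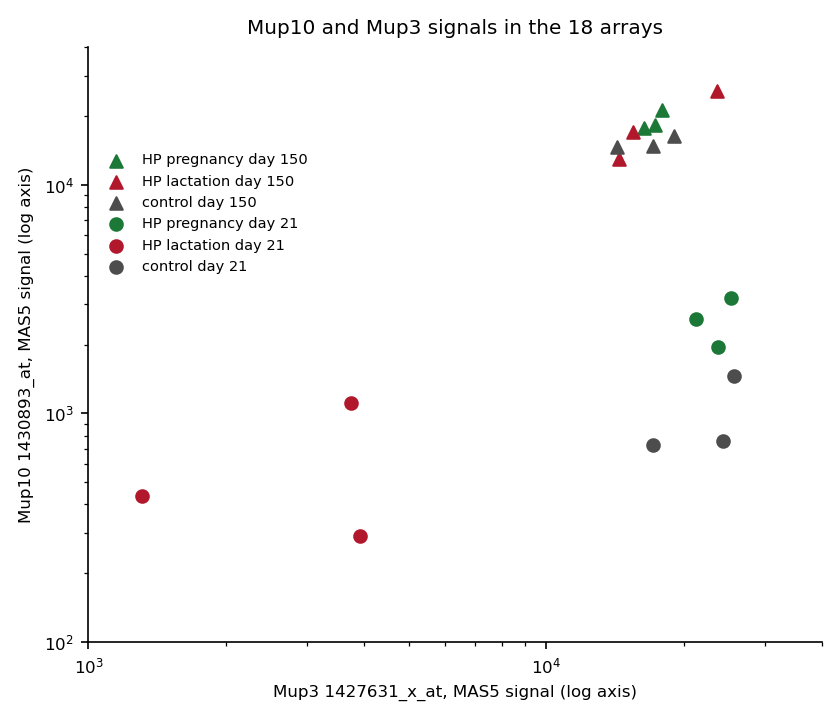
Mup10 1430893_at signal (y axis) against Mup3 1427631_x_at signal (x axis) in the 18 arrays, both on log axes. Triangles are day 150 and circles day 21. The 9 arrays of day 150 lie together at the top, while at day 21 the HP lactation arrays lie left of the HP pregnancy and control arrays.

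The other Mup3 set, 1427249_x_at, had low signals and was not among the tested sets. At day 150 it read 121.1, 118.3 and 108.7 after HP pregnancy, 16.4, 61.4 and 31.3 after HP lactation, and 24.0, 61.4 and 105.3 in control. At day 21 it read 3.5, 4.3 and 10.8 after HP pregnancy, 5.0, 0.7 and 1.9 after HP lactation and 1.7, 3.7 and 1.4 in control, far under the array medians of 57.2 to 81.7. The HP pregnancy arrays of day 150 were the highest of all 18, and each day 150 array was above each day 21 array. The tested Mup3 set differed in this, being higher at day 150 only after HP lactation. At day 21 the HP lactation and control signals of 1427249_x_at overlapped, while those of the tested Mup3 set did not. Whether the day 21 signals of 1427249_x_at stand above background is not known, so no fold and no test is given. Which transcripts either Mup3 set binds was not tested.

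Other genes that growth hormone pulses set in the liver were counted in lists. Of 24 tested male-biased genes, 3 fell and 0 rose at day 21 after HP lactation against control, with 21 of 24 negative and a median of -0.50, beside 0.0888% lower, 0.147% higher and a median of 0.06 over all sets. Besides Elovl3, a fatty acid elongase, and Slco1a1, an organic anion transporter, the third was Gna14, a G protein subunit, with levels of 131.7 after HP lactation and 298.2 in control (log2 difference -1.18, SE 0.22, adjusted p = 0.0356). The count was 8 without HP lactation day 21 replicate 2, 0 without control day 21 replicate 1, 1 without the arrays with Xist signal and 0 with the compared arrays fitted alone. Between the HP groups at day 21, 10 of 24 were higher after HP pregnancy and 0 lower (median 0.69), beside 0.457% higher, 0.169% lower and a median of -0.02 over all sets. Hsd3b5, a male-specific steroid dehydrogenase, read 1135, 2349 and 1987 after HP pregnancy, against 73.8, 275.0 and 154.7 after HP lactation, an 11.9-fold difference (log2 3.57, SE 0.42, adjusted p = 0.000336). Cyp4a12a, a fatty acid hydroxylase of the male liver, read 839.9, 1556 and 1665 against 259.3, 527.3 and 150.0 in the same groups (log2 2.24, SE 0.31, adjusted p = 0.00126). The count of 10 was 6 without HP lactation day 21 replicate 1 or without HP pregnancy day 21 replicate 2 or 3, and 4 with the compared arrays alone.

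Of 19 tested female-biased genes, 0 passed at day 21 for HP lactation against control (16 positive, median 0.52), beside 0.235% of all sets in either direction and their median of 0.06. Among the 3 negative, Sult3a1 had levels of 121.9 after HP lactation and 709.9 in control (log2 difference -2.54, SE 0.73, limma adjusted p = 0.12). Between the HP groups, 3 were lower when HP had been given in pregnancy rather than lactation (median -0.98), beside 0.169% of all sets and their median of -0.02. Sult1e1, the estrogen sulfotransferase, read 211.7, 71.8 and 65.2 after HP pregnancy, against 2756, 11154 and 1997 after HP lactation (log2 difference -5.31, SE 0.95, adjusted p = 0.0142). Cyp3a16 and Trim24 were the others. Sult1e1 and Cyp3a16 reached the filter on mean signal only through the HP lactation arrays of day 21, where they are high. Their calls, and the count of 3 beside the share of all sets, are hence descriptions and no support. The count was 0 without HP pregnancy day 21 replicate 2 or 3 and 1 without HP lactation day 21 replicate 1 or 2. With age in control livers, 18 male-biased genes were higher and 1 lower at day 150 (median 1.43), and 12 female-biased genes were lower and 0 higher (median -2.23), beside 6.94% higher, 6.63% lower and a median of 0.01 over all sets. Sult2a2, with control levels of 18485 at day 21 and 20.1 at day 150, reached the filter only through day 21 arrays, as did Sult1e1 and Cyp3a16. The female-biased age count and median are hence descriptions and no support. Cyp7b1, an oxysterol hydroxylase, was 21.1-fold higher at day 150 in control (log2 4.40, SE 0.16, adjusted p = 3.09e-12). Cyp3a44, a cytochrome P450 of the female liver, had a level of 153.1 at day 150 and 1281 at day 21 (log2 difference -3.06, SE 0.57, adjusted p = 0.0015).

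**Figure D4:**
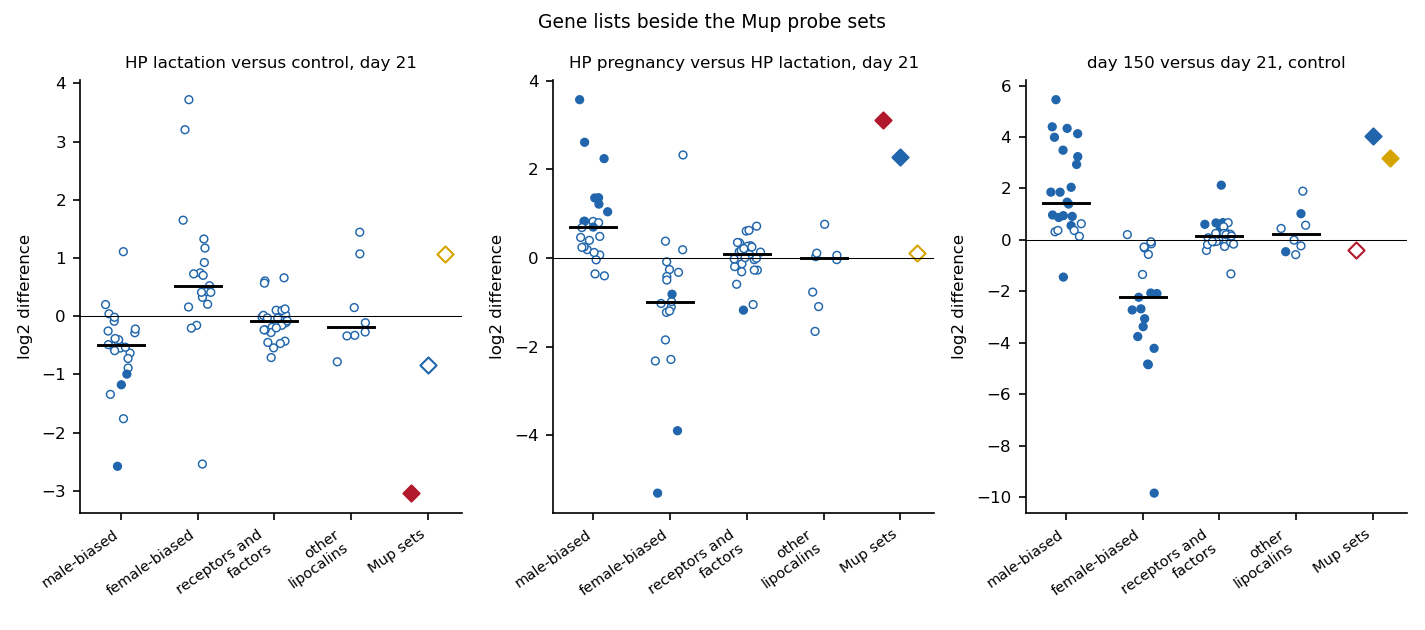
Log2 differences (y axis, different range in each panel) of the tested genes of 4 lists and of the 3 tested Mup sets (diamonds, Mup3, Mup10 and Mup5 from left to right) in 3 comparisons. Filled symbols have an adjusted p under 0.05 and black lines are list medians. The male-biased medians are -0.50, 0.69 and 1.43, and the female-biased medians 0.52, -0.98 and -2.23.

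Among 25 tested receptors and transcription factors that act on Mup or sex-biased liver genes, 0 passed for either HP group against control at either day, where 0.0 to 1.12% of all sets did. Ghr, the growth hormone receptor, read 7873, 11027 and 12778 at day 21 after HP lactation, against 19098, 13169 and 13687 in control. All HP lactation arrays were below all control arrays, by a log2 difference of -0.54 (SE 0.15, adjusted p = 0.117). Igf1, the growth factor that growth hormone induces in the liver, differed by -0.47 (SE 0.13, adjusted p = 0.12), Stat5b, the signal transducer, by -0.08 (SE 0.16, adjusted p = 0.866), and Zhx2, a repressor of fetal liver genes on which Mup levels depend, by -0.24 (SE 0.28, adjusted p = 0.737). Between the HP groups at day 21, Pparg, the adipogenic nuclear receptor, was the 1 of 25 past the threshold (lower, beside 0.169% of all sets), with levels of 147.4 after HP pregnancy and 333.1 after HP lactation (log2 difference -1.18, SE 0.25, adjusted p = 0.0365). With single arrays left out, the count of lower genes ran from 0 to 1, and in 1 such run 1 gene was higher. With age in control, 5 of 25 were higher and 0 lower at day 150, beside 6.94% and 6.63% of all sets, among them Ghr (0.61, SE 0.15, adjusted p = 0.0136), the kinase Jak2 (0.66, SE 0.12, adjusted p = 0.0017) and Bcl6, a repressor that favours the male pattern (2.13, SE 0.55, adjusted p = 0.0149). That count was 2 without control day 21 replicate 2 and 3 without control day 150 replicate 2.

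Of 8 tested lipocalins outside the Mup family, 0 passed in any comparison of diet groups, where 0.0 to 1.12% of all sets did. At day 21 after HP lactation the median difference from control was -0.19, and Rbp4, the retinol carrier, had levels of 27014 after HP lactation and 34167 in control (log2 -0.34, SE 0.16, adjusted p = 0.309). With age in control 1 of 8 was higher and 1 lower, beside 6.94% and 6.63% of all sets. Orm1, an acute phase protein, was higher at day 150 (1.02, SE 0.17, adjusted p = 0.000702) and Apom, an apolipoprotein that carries sphingosine-1-phosphate, was lower (-0.46, SE 0.11, adjusted p = 0.0126). Without control day 21 replicate 2, or without control day 150 replicate 1 or 3, 0 were lower, and 2 were higher without control day 150 replicate 1.

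By correlation of log2 signals over the 18 arrays, among 11015 other genes, the 5 most like Mup3 1427631_x_at were Mettl8 (r = 0.90), Slco1a1 (0.87), Mrpl39 (0.85), Gna14 (0.84) and Cyp2j5 (0.84). With the mean of each day taken off, the first 5 were Gna14 (0.93), Mettl8 (0.91), Slco1a1 (0.91), Ugt2b1 (0.89) and Cyp7b1 (0.89). Those most like Mup10 were Cyp4a12a (0.99), Hsd3b5 (0.97), Lama3 (0.97), Cyp7b1 (0.97) and Ugt3a1 (0.96), and with the day means off Cyp4a12a (0.91), Mn1 (0.88), Hsd3b5 (0.88), Cyp7b1 (0.87) and Abhd18 (0.86). These values are descriptions: the arrays share groups and days, the 3 lowest Mup3 signals are those of HP lactation at day 21, and the 9 lowest Mup10 signals are those of day 21.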

How the data were processed

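The authors deposited MAS5 signal intensities of 18 arrays on a linear scale, made with GCOS 1.4 per the submitters' processing notes; the trimmed mean of each array is 500. Gene symbols come from the platform annotation: 34958 probe sets have 1 symbol, 932 several and 9211 none. No genome build is named in the files. Signals were turned to log2 as deposited, with no further scaling. Probe sets at or above the median of the mean log2 signal were kept (22519; 64 control sets left out). Group means were fitted over all 18 arrays in limma 3.58.1 (R 4.3.3; eBayes with an intensity trend), two-sided, with 18.7 degrees of freedom. The number of arrays limits the precision: the median standard error was 0.22 for 2 groups and 0.32 for a difference of differences. In the lists, a gene is read from its brightest kept set.

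Named were all Mup sets, up to 4 genes of each list with the smallest p in a comparison, 7 genes that could always be named (Elovl3, Slco1a1, Hsd3b5, Igf1, Ghr, Stat5b, Zhx2) and, for likeness, the 5 genes with the highest correlation. The Mup sets, the gene lists and the tests were chosen with earlier results of these data known. Alternatives were other filters, scalings, an added 50, array weights, eBayes without trend, the compared arrays alone, a replicate block, 1 set per gene, an adjusted p under 0.10, the Gapdh ratio as covariate, and arrays left out. No label says that a replicate number marks a shared litter, batch or day. Over 30 pairs of same-numbered arrays of different groups, deviations correlated at -0.13 to 0.08. No pairing was thus seen, though such values cannot exclude one. The fit was tested on simulated data.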

Additional observations from a re-analysis of the deposited data

Results flagged for a closer look

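The difference between HP lactation and control in Mup3 1427631_x_at changed with age, by a test of the change itself. The day 150 difference was larger than that of day 21 by 3.10 on the log2 scale (SE 0.41, limma adjusted p = 0.00359), being 0.06 at day 150 and -3.04 at day 21. At day 150 the groups overlapped, with signals of 14423 to 23580 after HP lactation and 14259 to 19034 in control. At day 21 they were apart, with signals of 1309 to 3913 after HP lactation and 17111 to 25716 in control. Without the 2 arrays with Xist signal the value was 3.06 (adjusted p = 0.0225). The call ended with the 12 compared arrays fitted alone (3.10, adjusted p = 0.0706) and with the Gapdh ratio as covariate (2.97, adjusted p = 0.125).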

How the results depend on the processing

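The Mup3 difference of HP lactation from control at day 21 passed the threshold under every alternative run, with adjusted p up to 0.0469 (the compared arrays alone) and, over arrays left out, values of -3.32 to -2.53. Over the 11 counts of Mup sets past the threshold, 210 of 217 alternatives left the count within 1.5 times. These counts were 0 to 3 sets, and one that stayed at 0 or moved between 2 and 3 fell within this. The share hence says little on stability. The exceptions were these. HP lactation against control at day 21 gave 1 to 2 sets over arrays left out. With the compared arrays alone, HP pregnancy against HP lactation at day 21 gave 1 and the HP lactation response 0. With the Gapdh ratio as covariate, which is built from a ratio that separates the days, the age counts were 0 for HP pregnancy, 1 for HP lactation and 1 for control, and the HP lactation response count was 0 (Mup3 2.97, adjusted p = 0.125). The cause was not tested for the others.

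Signs turned only among differences that never passed. Mup3 for HP pregnancy against control at day 21 was -0.034 with array weights and -0.099 without the arrays with Xist signal (-0.10 to 0.19 over arrays left out). At day 150 with the Gapdh ratio it was -0.057 (-0.075 to 0.13 over arrays left out), and Mup5 was 0.026 (-0.20 to 0.045). For HP lactation against control at day 150, Mup3 was -0.024 with array weights, -0.014 with the Gapdh ratio and -0.16 without the Xist arrays (-0.16 to 0.19), and Mup10 -0.040 without the Xist arrays (-0.040 to 0.46). For HP pregnancy against HP lactation at day 150, Mup3 was 0.033 with quantile normalization, 0.032 with equal 75th percentiles, 0.065 with array weights and 0.20 without the Xist arrays (-0.16 to 0.20), and Mup10 ran from -0.14 to 0.36. At day 21 Mup5 ran from -0.16 to 0.31 there. The Mup3 response to HP pregnancy was 0.075 with array weights, 0.031 with equal 75th percentiles and 0.14 without the Xist arrays (-0.16 to 0.14).

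With the replicate block, over the 15 arrays numbered 1 to 3, Mup3 for HP lactation against control at day 21 was -3.04 (adjusted p = 0.000349), and no count of Mup sets moved; in 5 of 30 cases an array correlated best with its own number. No paired analysis was possible because of other numbers (4 to 6) for the comparisons with HP lactation at day 150.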

Other observations

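Within the 9 arrays of day 150, Mup3 1427631_x_at and Mup10 signals ran together on the log2 scale (Pearson's r = 0.83, exact permutation p = 0.00679, adjusted over 3 relations 0.0204; Spearman's rho = 0.733, exact permutation p = 0.0311, adjusted 0.0649). HP lactation replicate 4, an array with Xist signal, and control replicate 1 were the arrays farthest from the median of Mup3. Without these 2 arrays r was 0.552, so the relation leaned on them. The value without replicate 4 alone was not computed. Mup3 and Mup5 had r = 0.613 and rho = 0.70 (exact permutation p = 0.0745 and 0.0433, adjusted 0.112 and 0.0649), and r was 0.739 without the same 2 arrays. Mup10 and Mup5 had r = 0.388 and rho = 0.483 (exact permutation p = 0.305 and 0.194, adjusted the same), and r was -0.037 without HP lactation replicates 4 and 6. These arrays span 3 diet groups, each too small for a correlation of its own.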
